A study of Mus musculus with 21 samples.

Results

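The genes described here are 9 mouse genes for proteins of the sarcomere, the contractile unit of striated muscle. They were taken as a list named for giant and Z-disc proteins, although Myom1 and Mybph are neither: Ttn, Neb, Myom1, Mybph, Actn2, Actn3, Ldb3, Csrp3 and Tcap. They are 9 of 21883 protein-coding RefSeq genes on the chromosomes examined, and 8 of them are among the 19300 with a body of at least 2 kb. The readout was the percent of each gene body that lay inside called peaks of H3K36me3, trimethylation of lysine 36 on histone H3, mapped by chromatin immunoprecipitation and sequencing. All cells were C2C12, an established line of mouse myoblasts that fuse into myotubes in culture. Wild-type (WT) cells had 2 libraries at day 0, at day 1 in control medium, at day 1 under methionine restriction, at day 5 in control medium and at day 5 under methionine restriction. Each of 2 lines labelled as Setd2 knockouts (KO line 1 and KO line 2) had 1 library in each of the same 5 conditions, so a value of a KO line has no replicate. The study asked how methionine supply bears on the mark during differentiation. Nothing in the labels says that the libraries of a WT group came from separate cultures, so the p-values measure only the spread between these libraries, which may be technical.

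As background, titin (Ttn) is an elastic protein that runs from the Z-disc, where thin filaments are anchored, to the M-band, where thick filaments are cross-linked, and nebulin (Neb) runs along the thin filament. Myomesin 1 (Myom1) cross-links thick filaments at the M-band, and myosin binding protein H (Mybph) sits on the thick filament. Alpha-actinin 2 and alpha-actinin 3 (Actn2, Actn3) cross-link actin at the Z-disc, LIM domain binding 3 (Ldb3, also called ZASP or Cypher) binds alpha-actinin there, muscle LIM protein (Csrp3) is another Z-disc protein of muscle, and telethonin (Tcap) caps the end of titin in the Z-disc. SETD2 travels with elongating RNA polymerase II and trimethylates H3K36 behind it, so the mark lies over the bodies of transcribed genes rather than over their promoters.

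WT libraries had 63423 to 87398 peaks over 110 to 183 Mb, KO line 1 had 791 to 64530 peaks and KO line 2 had 127 to 13880. The body of Setd2 itself was covered to 45.6% to 82.8% in the WT libraries and to 0 to 24.0% in KO line 1, and it was listed at 0 in all 5 libraries of KO line 2. SETD2 protein was not measured. Depth is unknown, because a peak list carries none. Of 5 myotube markers (Myog, Myh3, Ckm, Acta1, Mymk), 5 were at 0 in both WT libraries of day 0 and 5 had a mean cover of at least 50% at day 5 in control medium. Of 5 myoblast markers, 4 had at least 50% at day 0. The markers of bone, fat and endothelial cells fixed for this purpose were all at 0 in WT cells, of 3 immune markers Cd68 alone had cover, and of 3 cardiac markers Myl7 was at 0 while Nppa had a mean of 23.6% at most and Myh6 of 2.10% at most.

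The stretches of 250 bases before the start site were read for 6 of the 9 genes, from RefSeq on GRCm38.p6, and 3 are shown because they belong to the gene with the longest covered body and to the 2 whose cover differed most between the media at day 5. Capitals mark an E-box (CANNTG, the core of sites bound by MyoD-family factors), a MEF2 box or a TATA box (TATAAA), searched on both strands.
Ttn, chr2:76982548-76982797, minus strand: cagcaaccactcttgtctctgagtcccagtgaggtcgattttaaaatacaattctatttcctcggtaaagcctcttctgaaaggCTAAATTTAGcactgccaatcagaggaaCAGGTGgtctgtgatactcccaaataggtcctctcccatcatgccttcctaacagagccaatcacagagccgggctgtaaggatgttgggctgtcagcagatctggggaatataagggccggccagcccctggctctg
Mybph, chr1:134193198-134193447, plus strand: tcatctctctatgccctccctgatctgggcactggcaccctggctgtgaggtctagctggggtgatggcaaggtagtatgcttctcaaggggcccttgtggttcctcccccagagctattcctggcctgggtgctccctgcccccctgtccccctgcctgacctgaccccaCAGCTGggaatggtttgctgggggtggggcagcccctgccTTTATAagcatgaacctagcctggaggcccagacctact
Csrp3, chr7:48848052-48848301, minus strand: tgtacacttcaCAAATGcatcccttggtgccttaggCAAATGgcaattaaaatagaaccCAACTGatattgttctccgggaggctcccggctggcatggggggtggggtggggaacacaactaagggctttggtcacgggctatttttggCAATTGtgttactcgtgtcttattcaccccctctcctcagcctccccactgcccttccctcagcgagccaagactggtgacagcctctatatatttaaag
The Ttn window held 1 E-box and 1 MEF2 box, which do not overlap, the Mybph window held 1 E-box and 1 TATA box read on the opposite strand, and the Csrp3 window held 4 E-boxes. Among 32851 RefSeq promoters cut to the same length, 66.2% held an E-box, 3.20% a MEF2 box and 12.4% a TATA box, and a match in letters is a description and not a bound site. These 3 windows were covered by no peak in any of the 20 libraries, including the 2 WT libraries of day 5 in control medium, in which the bodies behind them were covered to 70.6% or more. A listed inner start of Csrp3, with the window chr7:48843672-48843921, lay inside the covered body in both WT libraries of day 5 in control medium.

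Differentiation in control medium was followed first, to ask when each gene body came under the mark. Ttn (chr2:76703980-76982557, 278.58 kb) was already covered in undifferentiated myoblasts, to 81.5% and 61.2% of its body in the WT libraries of day 0. It stood at 92.8% and 94.5% at day 1 in control medium and at 96.9% and 96.6% at day 5. The 2 libraries of day 0 lay apart and below all libraries of the later days in control medium. Neb (chr2:52136640-52338798, 202.16 kb) had 0.849% and 0.70% at day 0, 8.94% and 9.80% at day 1 and 95.7% and 95.1% at day 5. The body of nebulin thus filled between day 1 and day 5, with both libraries of day 5 above both of day 1, as in 47.8% of all genes tested, whereas that of titin was mostly filled before differentiation began.

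**Figure D1:**
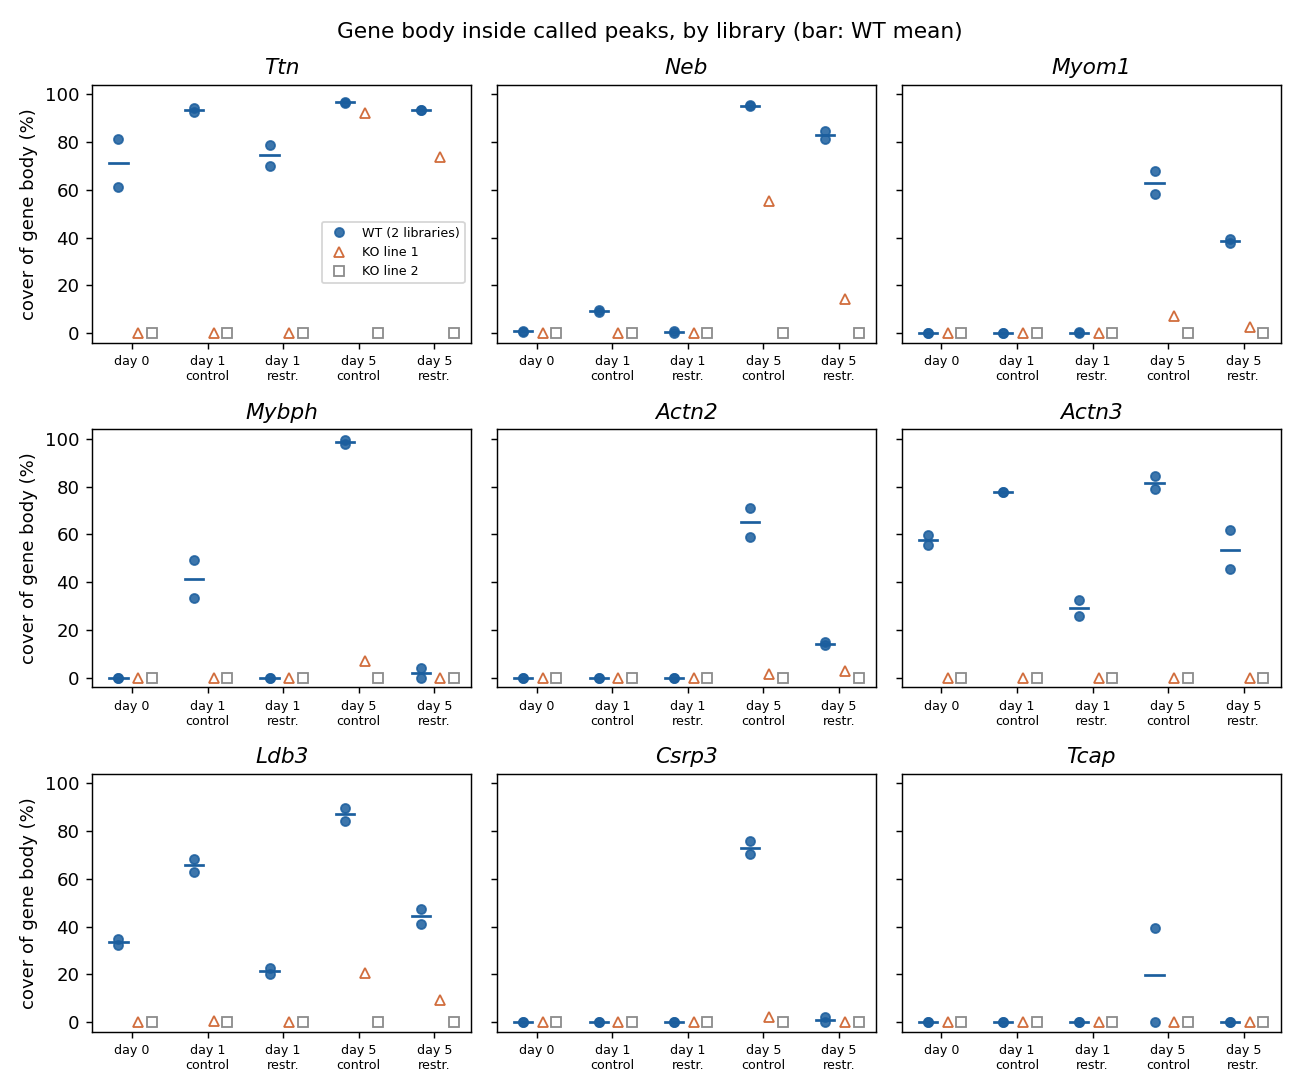
Percent of each gene body inside H3K36me3 peaks (vertical axis, linear) in every library, by day and medium (horizontal axis). Filled circles are the 2 WT libraries of a condition with a bar at their mean, open triangles are KO line 1 and open squares KO line 2. In WT at day 5 in control medium 8 of the 9 genes have a mean of at least 50%, while KO line 2 stays at or near 0 throughout.

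Actn3 and Ldb3 were like Ttn in having cover at day 0. Actn3 (chr19:4861216-4877909) had 55.6% and 59.9% at day 0, 77.9% in both libraries at day 1 and 84.4% and 79.0% at day 5. Ldb3 (chr14:34526699-34590314) had 32.2% and 34.9%, then 68.5% and 63.0%, then 89.8% and 84.3%, and its 3 groups did not overlap. All libraries of day 5 in control medium lay above those of day 0 for 25.8% of all genes tested. Mybph (chr1:134193418-134201237, 7.82 kb) was at 0 in both libraries of day 0, had 33.4% and 49.2% at day 1 and reached 99.6% and 97.8% at day 5. The remaining genes were at 0 in all WT libraries of day 0 and of day 1 in control medium and, of the days in that medium, had cover at day 5 alone. Among these, Csrp3 (chr7:48830398-48848051) reached 75.7% and 70.6%, Actn2 (chr13:12269426-12340732) 71.0% and 59.1%, and Myom1 (chr17:71003332-71126856) 68.0% and 58.2%. Tcap (chr11:98383811-98384953), whose body of 1.14 kb is the shortest of the list, had 39.6% in 1 library of day 5 in control medium and was at 0 in the other 19 libraries. It was too short for the tests and is given by its values only.

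Ordered by mean level at day 5 in control medium, Mybph stood at 98.7% ± 1.23 (SD, n = 2), Ttn at 96.8% ± 0.248 (SD, n = 2) and Neb at 95.4% ± 0.403 (SD, n = 2). Below them came Ldb3 at 87.1% ± 3.93 (SD, n = 2), Actn3 at 81.7% ± 3.88 (SD, n = 2), Csrp3 at 73.1% ± 3.61 (SD, n = 2), Actn2 at 65.0% ± 8.42 (SD, n = 2) and Myom1 at 63.1% ± 6.89 (SD, n = 2). The libraries of Ldb3 overlapped those of Actn3, those of Csrp3 overlapped those of Actn2, and those of Actn2 overlapped those of Myom1, so these neighbours in the order were not separated by their spread. Parts of some bodies are shared with other genes: 25.9% of Mybph with Adora1, 19.3% of Actn2 with the long non-coding gene Gm40667, and 12% of Neb with the long non-coding gene 4930573O16Rik. A peak in a shared stretch cannot be assigned to either gene. Leaving the shared bases out changed no call of these genes between WT groups.

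In the fit across 9512 genes, 8 of the 9 genes could be tested, and from day 0 to day 5 in control medium 8 of these 8 rose, against 12.2% of all genes called higher (limma, Benjamini-Hochberg-adjusted p under 0.05 over all genes). Actn2 and Csrp3 passed the filter on low cover only through the libraries of day 5 in control medium, so they had to be high there and their part in the count is no support. Mybph rose by 98.7 points of cover (SE 4.94, limma adjusted p = 3.42e-06), Neb by 94.6 (SE 3.33, limma adjusted p = 1.08e-06) and Csrp3 by 73.1 (SE 2.41, limma adjusted p = 9.97e-07). Actn2 rose by 65.0 points, Myom1 by 63.1 and Ldb3 by 53.5. Ttn rose by 25.4 points (SE 5.73, limma adjusted p = 0.0112) and Actn3 by 23.9 (SE 5.62, limma adjusted p = 0.0137), and these 2 calls were the weakest. Without the first WT library of day 5 in control medium neither was called, with differences of 25.2 and 21.2 points. Ttn also lost its call without the second such library (25.6 points) and with only the libraries compared (25.4 points), and Actn3 without the first library of day 0 (21.8 points) and with peaks up to 1 kb apart joined (25.3 points). The rise of Ttn was 15.2 points without the second library of day 0 and 15.3 with joined peaks, still called. With every list cut to one covered length the rise was 45.0 points for Ttn, 48.7 for Actn3, 39.8 for Actn2 and 21.7 for Myom1, all called. The median difference over all genes tested was -1.17 points, with 1157 genes higher and 1484 lower. Centring each library on its median over the genes tested added 2.38 points, gave 1614 higher and 1299 lower, and left these 8 higher.

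Split by interval, 2 of the 8 genes tested rose from day 0 to day 1 in control medium, Mybph by 41.3 points (SE 4.94, limma adjusted p = 0.00395) and Ldb3 by 32.2 (SE 4.24, limma adjusted p = 0.00592), against 0.967% of all genes called higher. Ttn differed by 22.3 points (limma adjusted p = 0.0554) and Actn3 by 20.1 (limma adjusted p = 0.0704), which missed the threshold although both libraries of day 1 lay above both of day 0, as in 5.71% of all genes tested. Without the first library of day 0, the one at 81.5%, Ttn was called, at 32.5 points, and without the second it was at 12.2 points and not called. From day 1 to day 5 in control medium 6 of the 8 rose, against 17.1% of all genes: Neb by 86.0 points, Csrp3 by 73.1, Actn2 by 65.0, Myom1 by 63.1, Mybph by 57.4 and Ldb3 by 21.3 (limma adjusted p from 1.29e-06 to 0.00773). Actn2 and Csrp3 are again no support, since only the libraries of day 5 in control medium let them into the test, and of the other 6 genes 4 rose. Ttn and Actn3 differed by 3.08 and 3.82 points between these days and were not called. Ldb3 lost its call in this interval without the first library of day 5 in control medium or without the second of day 1 (18.5 points in each case), and with peaks up to 1 kb apart joined (14.2 points). In lists cut to one covered length the rise in this interval was 88.8 points for Mybph, 37.8 for Ldb3, 39.8 for Actn2 and 21.7 for Myom1. Centring added 8.48 points to the first interval, where called genes went from 92 higher and 537 lower to 225 and 108 and 5 of the 8 genes were higher. In the second interval, where every difference shifted by -6.10 points, they went from 1628 and 566 to 991 and 1176, and 6 of the 8 genes were higher. With only the 4 libraries of day 0 and day 1 in the fit, Actn2, Csrp3 and Myom1 were at 0 and fell below the filter. Of the 9393 genes in that fit, the rest of the 8 among them, 0 were called by limma, with 1876 at an unadjusted p under 0.05. Mybph lost its call when peaks had to reach a −log10 q of 3, where its mean cover at day 1 was 9.90%. In lists cut to one covered length it lost the call too, at 9.90 points, while Ttn was called at 41.0.

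Position along the 5 bodies of at least 50 kb was examined next, in 10 equal segments. The body of Ttn was broken into 60 and 107 merged peaks at day 0, into 23 and 16 at day 1 in control medium and into 5 and 7 at day 5. The longest unbroken stretch inside the body was 25.3 kb and 8.55 kb at day 0, 35.0 kb and 51.0 kb at day 1 and 124.7 kb and 79.2 kb at day 5. The longest stretches of day 5 thus exceeded those of day 0 in both libraries. In the authors' deposited lists of day 5 in control medium, the peak on Ttn was the longest of 87398 peaks in the first library and the second longest of 87266 in the other, where the longest lay on Neb.

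**Figure D2:**
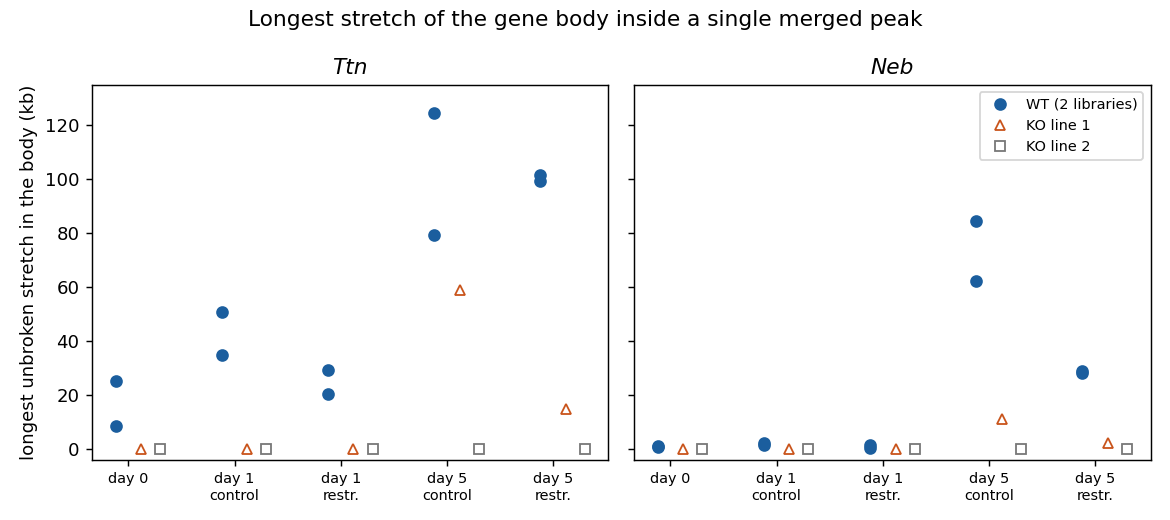
Longest stretch of the Ttn and Neb bodies inside a single merged peak, in kb (vertical axis, linear), by day and medium. Filled circles are the 2 WT libraries, triangles KO line 1 and squares KO line 2. For Ttn the WT libraries of day 5 lie at 79.2 kb or more in both media, while for Neb the restricted libraries of day 5 lie at 28.1 and 28.7 kb, below 62.2 and 84.5 kb in control medium.

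Cover of Ttn did not reach its start in any WT library. The 20 kb before the gene were at 0 in all WT libraries, the first covered base lay 1.14 to 5.15 kb inside the body, and segment 1 was the least covered of the 10 at day 5, with a mean of 72.2% in control medium. Past the end, where the neighbour Plekha3 lies, 58.4% to 98.4% of the next 20 kb was covered in WT. Neb, for which no strand was available and which is described in chromosome order, was covered to 92.8% or more in segments 1 to 9 and to 69.99% in segment 10 at day 5 in control medium. In Actn2 the 3′ side was fuller: from the start, segments 1 to 4 had means of 22.9% to 53.9% and segments 5 to 10 had 74.4% to 92.1%. Cover of Myom1 began 18.4 and 18.8 kb inside the annotated body at day 5 in control medium, so segment 1 was at 0, and the start site listed in the promoter table, position 71019557, also lies inside that body.

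The difference between the 3′ part of a body (from its midpoint to its end) and the 5′ part was tested for 7710 genes with known strand, 6 of the 9 genes among them. From day 0 to day 5 in control medium it rose for 2 of the 6, against 6.54% of all genes called in either direction: by 48.0 points for Csrp3 (SE 3.69, limma adjusted p = 0.000656) and by 35.2 for Actn2 (SE 4.41, limma adjusted p = 0.00416). Both had started from no cover and passed the filter only through the libraries of day 5 in control medium, so this count is no support, and of the other 4 genes 0 were called. In Csrp3 the 5′ part was covered to 53.6% and 44.7% and the 3′ part to 97.8% and 96.5%. Ttn differed by -1.78 points in this measure (95% interval from -8.90 to 5.34). Mybph at day 1 in control medium had 14.7% and 17.9% of its 5′ part and 52.1% and 80.5% of its 3′ part covered. Its difference from day 0 in this measure was 50 points (limma adjusted p = 0.0484, 1 of 6 genes against 0.415% of all), but it was called in only 2 of 18 alternatives (adjusted p from 0.000722 to 0.840). In restricted cells of day 1 the body was bare, and this measure fell by 50 points against control medium (limma adjusted p = 0.00710, 1 of 6 genes against 13.5% of all). At a −log10 q of at least 3 and in lists cut to one covered length the fall was 5.10 points and not called. From day 1 to day 5 in control medium 3 of the 6 were called, against 5.05% of all: Csrp3 and Actn2 moved toward the 3′ part and Mybph differed by -47.4 points, toward the 5′ part (limma adjusted p = 0.0159). The first 2 passed the filter only through day 5 in control medium. Mybph stood at -2.52 points and was not called in those same settings, and it lost the call without either library of day 5 in control medium (-45.7 and -49.2 points).

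**Figure D3:**
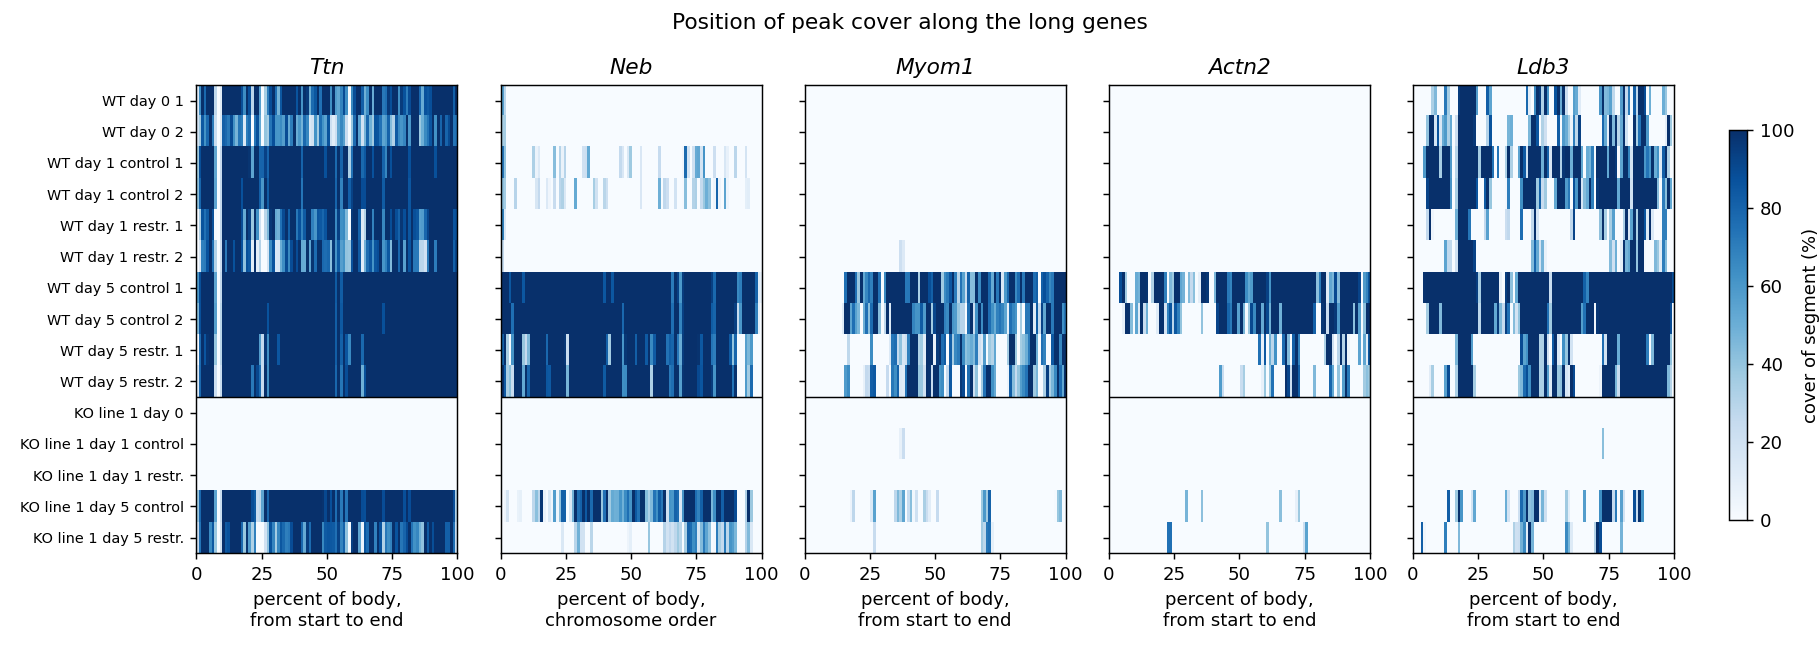
Cover along the 5 bodies of at least 50 kb in 100 equal segments (horizontal axis, percent of the body from start to end, or in chromosome order for Neb), with a row per library and colour giving the percent of the segment inside peaks. WT rows lie above the line and KO line 1 below it. At day 5 Ttn is mostly filled in the WT rows except near its start, with gaps inside the body at day 0 and under restriction at day 1, whereas in WT before day 5 Actn2 is at 0 and Myom1 at 0.349% or less.

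Methionine restriction was compared with control medium at day 1. Restricted cells had 25.7% and 32.6% of Actn3 covered, 22.8% and 20.4% of Ldb3 and 78.8% and 70.1% of Ttn. Mybph was at 0 in both restricted libraries. In these genes both restricted libraries lay below both controls, as for 59.7% of all genes tested. Under restriction 4 of the 8 genes tested fell at day 1, against 36.0% of all genes called lower and a median difference of -7.99 points over all genes. The count is near that share and is no result about these genes. Actn3 fell by 48.7 points (SE 5.62, limma adjusted p = 0.000356), Ldb3 by 44.2 (SE 4.24, limma adjusted p = 0.000140), Mybph by 41.3 (SE 4.94, limma adjusted p = 0.000420) and Ttn by 19.2 (SE 5.73, limma adjusted p = 0.0294). Neb differed by -8.83 points and was not called (limma adjusted p = 0.0670), and Myom1, Actn2 and Csrp3 had no cover to lose. Markers moved with these values: summed mean cover of the 5 myotube markers was 197 in control and 9.91 in restricted medium at day 1, and that of the 5 myoblast markers 344 and 162, and their part in the result was not tested. The calls of Actn3 and Ldb3 held in 20 of 20 alternatives and that of Mybph in 18, its difference being -9.90 points at a −log10 q of at least 3 and in lists cut to one covered length, but that of Ttn in only 11 of 20 (adjusted p from 0.00177 to 0.468). Ttn was not called without the first or the second WT library of day 1 in control medium (-20.1 and -18.4 points), the second restricted one (-14.8 points) or either library of day 5 in control medium (-19.2 points). Over all alternatives the value of Ttn ran from -34.3 to -4.02 points, the latter with the centring described next and not called. Because the restricted lists were shorter as a whole, each library was also centred on its median over the genes tested, which added 15.2 points to every difference at day 1. Called genes were then 3518 higher and 1246 lower, against 226 and 3422 before, and Actn3, Ldb3 and Mybph were still called lower, while Actn2, Csrp3 and Myom1, at or near 0 in all 4 libraries, came out higher.

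At day 5 restriction divided the list. Ttn kept 93.5% and 93.4% of its body under peaks in restricted medium, and Neb kept 81.2% and 84.5%. Mybph, by contrast, had 0 and 3.94% and Csrp3 0 and 2.08%, so both were nearly bare at a time when the controls were covered to 70.6% or more. Actn2 had 15% and 13.6%, Myom1 37.6% and 39.6%, Ldb3 41.2% and 47.5%, and Actn3 45.5% and 61.9%. For each of these 8 genes both restricted libraries lay below both controls, as they did for 65.4% of all genes tested. Tcap was at 0 in both restricted libraries.

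Against control medium at day 5, 7 of the 8 genes fell, while 41.5% of all genes were called lower. Actn2 and Csrp3 were in the test only through the control libraries of this comparison, so their fall is no support, and of the other 6 genes 5 fell. Mybph fell by 96.7 points (SE 4.94, limma adjusted p = 7.75e-06), Csrp3 by 72.1 (SE 2.41, limma adjusted p = 1.85e-06) and Actn2 by 50.8 (SE 3.59, limma adjusted p = 2.67e-05). Ldb3 fell by 42.7 points, Actn3 by 28.0, Myom1 by 24.5 and Neb by 12.5 (limma adjusted p = 0.000119, 0.00427, 0.000690 and 0.0151). Ttn differed by -3.29 points (95% interval from -16.4 to 9.84, limma adjusted p = 0.676), a difference smaller than the median of -9.15 points over all genes. The intervals of Ttn and Neb overlap that median, whereas those of Mybph, Csrp3, Actn2, Ldb3, Actn3 and Myom1 lie wholly below it. Centring on library medians added 16.7 points at day 5, and all genes were then called 3763 higher and 1395 lower, against 411 and 3944 before. After it Mybph, Csrp3, Actn2 and Ldb3 were still lower, Actn3 and Myom1 were no longer called, and Ttn turned to a called difference of 13.4 points and Neb to one of 4.14 that was not called. In lists cut to one covered length Myom1 turned to 3.15 points and was not called, and Actn2 fell by 30.6. The call of Neb was also lost without the first WT library of day 5 in control medium or without the first restricted one (-12.3 and -10.9 points).

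**Figure D4:**
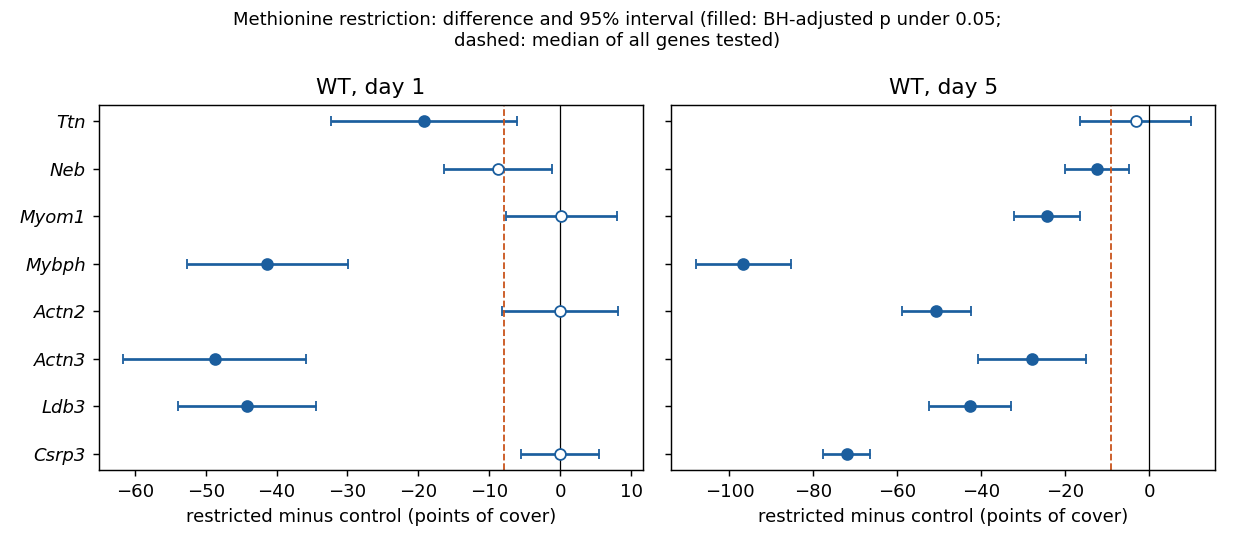
Restricted minus control difference in percent points of cover (horizontal axis) for the 8 genes tested, at day 1 and day 5 in WT, with 95% intervals from limma. Filled points passed the adjusted threshold, and the dashed line is the median over all genes tested, -7.99 points at day 1 and -9.15 at day 5. At day 5 the genes run from Ttn at -3.29 points to Mybph at -96.7.

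The markers of myotubes moved with these values. Their summed mean cover was 431 in control medium and 97.6 in restricted medium at day 5, with 5 of 5 and 1 of 5 markers at 50% or more. Myog was at 0 under restriction and Myh3 had the highest cover, 57.3%. Summed cover of the myoblast markers also went from 335 to 177, and covered length from 171 and 183 Mb to 131 and 134 Mb. In a bulk culture, fewer cells carrying a mark and less of it in each cell cannot be told apart, and the part of either in the loss of cover was not tested.

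The place of what cover remained under restriction is given first by segments, with no test. In Actn2 segments 1 to 4, which had 22.9% to 53.9% in control medium, were at 0 in both restricted libraries of day 5, and segments 7 to 10 kept means of 28.8% to 34.4% of 74.4% to 92.1%. The first covered base lay 40.8 and 30.2 kb from the start of Actn2, against 2.93 and 4.22 kb in control medium. Ldb3 kept a mean of 98.5% in segment 9 while segment 1 had 2.27% and segment 4 had 0. Segments with at least 50% mean cover went from 8 to 0 of 10 in Actn2, from 8 to 4 in Myom1 and from 10 to 5 in Ldb3, and they were 10 and 9 in Neb and 10 and 10 in Ttn. Neb lost most in segment 10, from 69.99% to 16.7%, and its longest unbroken stretch was 28.7 and 28.1 kb, against 62.2 and 84.5 kb in control medium. Ttn was cut into 14 and 16 merged peaks but still held stretches of 101.5 and 99.5 kb.

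Tested as the 3′ minus the 5′ part, the shift between media at day 5 was called for 1 of 6 genes, Csrp3, which fell by 45.9 points (SE 3.69, limma adjusted p = 0.000558) with almost no cover left on either side, against 22.0% of all genes called in either direction. Csrp3 and Actn2 were in the test only through the control libraries of this comparison, so the fall of Csrp3 is no support, and of the other 4 genes 0 were called. Ldb3 differed by 16.7 points, toward its 3′ part, and missed the threshold (95% interval from 4.30 to 29.1, limma adjusted p = 0.0605). Actn2 differed by -8.27 points and Myom1 by 8.11, neither called. From day 0 to restricted day 5 the 3′ minus 5′ difference was called as risen for 3 of 6 genes. Of all genes 23.4% were called in either direction, and 1097 of 7710 toward the 3′ part. Without Actn2 and Csrp3, which passed the filter as stated above, the genes called were 2 of 4. The differences were 31.4 points for Ldb3, 26.9 for Actn2 and 24.8 for Myom1 (limma adjusted p = 0.00636, 0.00569 and 0.00640). None of the 3 was called with a −log10 q of at least 3, at 17.03, 4.11 and 2.88 points in that order, or in lists cut to one covered length, at 26.8, 18.5 and 13.6.

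Restricted cells of day 5 were also set against day 0, to see which bodies came under the mark despite restriction. Of the 8 genes 4 rose, against 4.05% of all genes called higher, while the median over all genes was -9.84 points. Actn2, one of the 4, and Csrp3 passed the filter only through day 5 in control medium and are no support, and of the other 6 genes 3 rose. Neb rose by 82.1 points (SE 3.33, limma adjusted p = 7.38e-06), Myom1 by 38.6 (SE 3.43, limma adjusted p = 5.79e-05), Ttn by 22.1 (SE 5.73, limma adjusted p = 0.0131) and Actn2 by 14.3 (SE 3.59, limma adjusted p = 0.0115). Ldb3 differed by 10.8 points, Mybph by 1.97, Csrp3 by 1.04 and Actn3 by -4.10, none of them called. Without the first restricted library of day 5, Actn2 and Ttn lost their calls (13.6 and 22.1 points), and 2 genes were left. When peaks had to reach a −log10 q of 3, Actn2 stood at 2.05 points and Myom1 at 17.2 and neither was called, while Ldb3 was called at 16.8 points. Ldb3 was also called in lists cut to one covered length (29.5 points), with centring (29.9 points) and without limma's trend and robust settings (10.8 points). With centring, which added 19.1 points, 7 of the 8 were called higher, and the genes called over all went from 385 higher and 4138 lower to 4282 and 1402. Csrp3 and Mybph, at 1.04 and 1.97 points before, were among those 7 through the added points alone. Ttn also lost its call without the second restricted library (22.2 points) and with only the libraries compared (22.1 points), and it was at 11.95 points, still called, without the second library of day 0. The comparisons with day 0 share the libraries of day 0, and those between media at day 5 share the restricted libraries with this one.

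The effect of restriction differed between day 5 and day 1 for 4 of the 8 genes, all more negative at day 5, against 3.58% of all genes called in that direction. The difference of the effects was -72.1 points for Csrp3 (SE 3.40, limma adjusted p = 4.49e-05), -55.4 for Mybph (SE 6.98, limma adjusted p = 0.00347), -50.8 for Actn2 (SE 5.07, limma adjusted p = 0.00100) and -24.6 for Myom1 (SE 4.85, limma adjusted p = 0.0238). Csrp3, Actn2 and Myom1 had no cover at day 1 in control medium, so none could be lost then and the value restates the effect at day 5. Mybph had control means of 41.3% at day 1 and 98.7% at day 5, and restricted means of 0 and 1.97%. It lost nearly all its cover on both days, so its value mirrors the rise of the control. Csrp3 and Actn2 also passed the filter only through day 5 in control medium and are no support, and of the other 6 genes 2 were called. Myom1 was called in only 12 of 20 alternatives (adjusted p from 0.00422 to 0.573). It was not called without any 1 of the libraries of day 1 in either medium or of the restricted libraries of day 5 (-23.6 to -25.6 points), and it turned to 2.97 points in lists cut to one covered length. In the 3′ minus 5′ measure this difference of effects was called for Csrp3 alone of the 6 (-45.9 points, limma adjusted p = 0.0148, against 1.3% of all genes), and there without either control library of day 1, the second restricted one of day 1 or either restricted one of day 5 it was not called (-43.8 to -48.0 points). For Ttn and Actn3 the differences were 15.9 and 20.7 points, for Neb -3.71 and for Ldb3 1.45, and none was called.

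**Figure D5:**
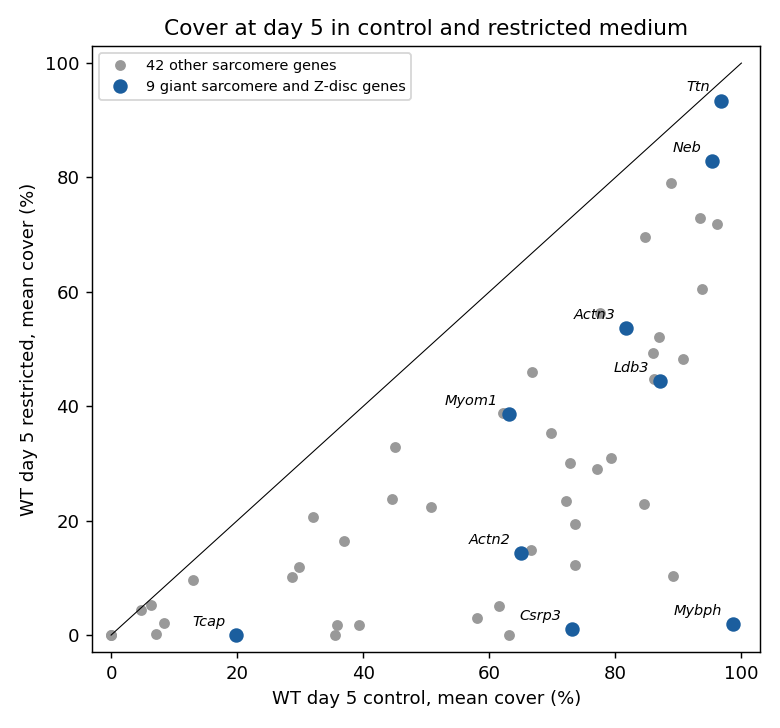
Mean percent cover in WT at day 5 in control medium (horizontal axis) against restricted medium (vertical axis), for the 9 genes (blue, named) and 42 other sarcomere genes (grey), with the line of equal cover. Each point is the mean of 2 libraries. Ttn lies near the line at 96.8% and 93.5%, and Mybph in the lower right corner at 98.7% and 1.97%.

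In the KO lines the genes had almost no cover before day 5. KO line 1 was at 0 for all 9 genes at day 0 and at day 1 under restriction, and at day 1 in control medium only Ldb3 (0.424%) and Myom1 (0.306%) were above 0. KO line 2 was at 0 for every gene in every condition except Myom1, with 0.304% at day 5 in control medium. Line 1 at day 5 in control medium nevertheless had 92.1% of Ttn covered and 55.4% of Neb. Ldb3 had 20.6% there, Myom1 7.41%, Mybph 6.87%, Csrp3 1.98% and Actn2 1.77%, while Actn3 and Tcap were at 0. Under restriction it had 73.8% of Ttn, 14.4% of Neb, 9.39% of Ldb3, 2.66% of Actn2 and 2.43% of Myom1. Ttn in KO line 1 at day 5 in control medium, at 92.1%, lay just below the 4 WT libraries of day 5, which ran from 93.4% to 96.9%, after being at 0 on the earlier days. Its peak was the third longest in that list, at 58.9 kb, and lay in a library with 74.1 Mb of cover, the most of any KO library.

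Setting both KO lines against both WT libraries, in a fit of 8859 genes over all 20 libraries, 7 of the 8 genes were lower in KO at day 5 in control medium, against 84.1% of all genes, and the exception was Ttn at -50.7 points (95% interval from -106.2 to 4.82, limma adjusted p = 0.0804). In this fit Actn2, Csrp3 and Myom1 passed the filter only through the WT libraries of day 5 in control medium and had to be high there, and of the other 5 genes 4 were lower. Without the library of KO line 1 Ttn was at -96.8 points and called, and without that of KO line 2 it was at -4.66 points and not called, so the 2 lines stood far apart. It was also called at -50.7 points without either KO library of restricted day 5. Called genes were 2 higher and 7454 lower over all, and 3107 and 1281 after centring, which added 50.2 points and left 6 of the 8 lower. Under restriction 5 of the 8 were lower, against 74.9% of all genes. Those were Neb (-75.6 points), Actn3 (-53.7), Ldb3 (-39.7), Myom1 (-37.4) and Actn2 (-12.9), with limma adjusted p from 1.15e-07 to 0.000830. Ttn, at -56.6 points, was not called in the main fit. It was called at a −log10 q of at least 3 (-68.6 points) or without either KO library of day 5 in control medium (-56.6 points). Without KO line 1 in that condition it was at -93.5 points, and without KO line 2 at -19.6. Centring, which added 38.6 points here, turned Actn2 to 25.6, Csrp3 to 37.5, Mybph to 36.6 and Myom1 to 1.16 and left 2 of the 5 called lower, while the genes called over all went from 5 higher and 6632 lower to 3192 and 2271. Mybph and Csrp3 were at 0 in both KO lines and at 3.94% or less in WT there, so their turn is the added constant. The counts in both media lie near or below the share of all genes and are no result about these genes. The change from day 0 to day 5 in control medium was less positive in KO than in WT for 7 of the 8 genes, against 6.23% of all genes called in that direction. For Actn2, Csrp3 and Myom1 that direction was fixed by the filter, so they are no support, and of the other 5 genes 4 were called. It was -95.3 points for Mybph (SE 5.52, limma adjusted p = 8.28e-08), -72.2 for Csrp3, -66.9 for Neb, -64.2 for Actn2, -59.2 for Myom1, -43.3 for Ldb3 and -23.9 for Actn3. The value of Neb was -94.6 points without KO line 1 at day 5 in control medium and -39.2 without KO line 2, and with only the libraries compared its call was lost at the same -66.9 points. Ttn differed by 20.6 points (95% interval from -57.9 to 99.1, limma adjusted p = 0.724), at -25.4 without KO line 1 at day 5 in control medium and at 66.7 without KO line 2, not called in either. Both KO lines were at 0 for all 9 genes at day 0, so in this measure the KO side is only the cover at day 5. A gene that rose in WT and had little KO cover then had to come out negative. A gene at 0 in the KO lines at both days gives back the WT change with its sign turned. The count thus largely restates the WT rise and is no separate result. Without the first WT library of day 5 in control medium 4 were called, because Actn2 and Csrp3 then fell below the filter and Actn3, at -21.2 points, lost its call. Actn3 also lost it without the first WT library of day 0 (-21.8 points) or without either KO library of day 0 (-23.9 points). The same held with only the libraries compared (-23.9 points) and with peaks up to 1 kb apart joined (-25.3 points). At a −log10 q of at least 3 Actn3 was at -40.1 points and called. Called genes over all were 1028 higher and 552 lower, and 621 and 1035 after centring, which shifted every difference by -8.03 points and left 7 of the 8 lower.

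The other sarcomere genes were described by a list of 42, chosen with earlier results of these data known, of which 37 could be tested, 5 of them only through the libraries of day 5 in control medium. From day 0 to day 5 in control medium 26 of the 37 rose and 2 fell, against 12.2% of all genes called higher, with a median difference of 45.0 points. The 5 that entered through day 5 in control medium had to be high there and are no support, and of the other 32 genes 21 rose. Myom3, a myomesin, rose by 90.7 points and Klhl41, a kelch protein of muscle, by 86.6 (limma adjusted p = 9.97e-07 and 1.62e-06). Klhl41 had 90.1% and 88.1% at day 5 and 2.83% and 2.18% at day 0. The 2 that fell, against 15.6% of all genes called lower, were Fhl1, by 35.1 points, and Actn1, an alpha-actinin of non-muscle cells, by 18.6 (limma adjusted p = 0.000548 and 0.00747). Actn1 and Actn4, the non-muscle alpha-actinins, fell from day 0 to day 1 by 23.6 and 22.8 points (limma adjusted p = 0.0125 and 0.0110), against 5.65% of all genes called lower. From day 1 to day 5 Actn4 rose by 19.8 points (limma adjusted p = 0.00483), so that at day 5 it differed from day 0 by -3.02 points and was not called. From day 0 to day 1, 4 of the list rose, against 0.967% of all genes, and with centring 6 rose, against 2.37%, and 0 fell.

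Under restriction 33 of these 37 genes fell at day 5 and 0 rose, where 41.5% of all genes were called lower and 4.32% higher. The 5 that entered through the control libraries of day 5 had to fall and are no support, and of the other 32 genes 28 fell, with a median difference of -30.7 points beside -9.15 over all genes. At day 1, where 36.0% of all genes were called lower and 2.38% higher, 16 fell and 0 rose, with a median of -9.90 points beside -7.99, a share near that of all genes. Klhl41 fell by 78.8 points at day 5, Synpo2l, for a Z-disc protein related to myopodin, by 63.1 and Trim63, for the ubiquitin ligase MuRF1, by 61.6 (limma adjusted p from 5.41e-06 to 2.98e-05). Synpo2l was at 0 in all 4 restricted libraries, although it had 25.5% and 27.6% at day 0. With centring 22 of the 37 were lower at day 5, against 14.7% of all genes, and 2 higher, and at day 1 8 were lower, against 13.1%, and 14 higher. Relative to day 0, restricted cells of day 5 had 13 of the 37 higher and 11 lower, while 4.05% of all genes were called higher and 43.5% lower. Myom2 (69.6 points) and Nrap (56.0) were among the former and Ankrd1 (-51.8), Actn4 (-51.2) and Actn1 (-41.9) among the latter, and with centring 24 were higher, against 45% of all genes, and 5 lower.

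Genes outside the list whose cover ran closest were sought for Ttn, Neb and Csrp3 by the root mean square difference in percent cover over the 20 libraries, among protein-coding genes of at least 2 kb. For Neb they included Myom2 and Cacna1s, at 11 and 14.3 points. For Csrp3 they were Casq1 (2.53 points), Plpp7 (2.54) and Galnt6 (2.78). For Ttn they were Kdm3a (6.11 points), Narf (8.17) and Pfkl (8.65), while the nearest of the 8 other listed genes, Actn3, lay 34.0 points away. Within a library all genes share 1 depth and list length, so the measure is a description. Actn2 and Csrp3 were 5.09 points apart, closer than any other pair of the 8 genes tested. Both were at 0 in all WT libraries before day 5 and at 2.66% or less in the KO lines, so shared zeros make up much of this closeness. At day 5 under restriction their means were 14.3% and 1.04%.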

How the data were processed

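Chromatin immunoprecipitation followed by single-end sequencing measured H3K36me3 in 20 libraries, with fly chromatin added as a spike-in per the labels' protocols. The spike-in was not used here and the input library was not analysed here. The authors deposited 1 peak list per library, of 9 columns and without a header, on GRCm38 per the submitters' processing notes. In the deposited lists each peak carries a score, a fold enrichment (a ratio) and the −log10 of a p and of a q value, all given by the authors' peak caller. The caller, its control and its filters are not given in the sources used here. The lowest −log10 q per list was 1.00 to 1.96. Names of peaks inside the lists call the KO lines replicates, whereas the labels call them lines, and the labels were followed.

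Peaks that overlapped or touched were merged on the numbered chromosomes, X and Y, and the percent of each RefSeq GRCm38 gene body inside them (cover) was computed with Python 3.11.15, numpy 2.4.6 and pandas 2.3.3. Cover counts called bases and not the strength of the mark, and it cannot pass 100%. Differences were tested on the percent scale with limma 3.58.1 in R 4.3.3 (linear fit, empirical Bayes with trend and robust settings), over genes of at least 2 kb with a mean cover of at least 5% in the libraries fitted. The WT fit had 10 libraries in 5 groups and 7 comparisons. The KO fit had 20 libraries, with the 2 lines as the 2 samples of a group, and 3 comparisons. P-values were adjusted by Benjamini-Hochberg over all genes of a fit and called under 0.05, and the test was tested on simulated data. Strand came from the promoter table, which gave it for 17491 of 21883 genes. Named genes outside the 9 were, from the list of 42, up to 3 in each direction with the largest called difference and no overlap between groups, and the 3 most like Ttn, Neb and Csrp3. A gene that this rule named is not reported here. Members and lists were chosen with earlier results of these data known. Alternatives were a −log10 q of at least 3, joining peaks up to 1 kb apart, lists cut to one covered length, centring, no filter, shared bases left out, only the libraries compared, other limma settings, a replicate block and each library left out. Gene bodies of at least 1 kb and leaving out the 2 KO libraries of restricted day 1 were added after seeing the data.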

Additional observations from a re-analysis of the deposited data

Results flagged for a closer look

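The effect of methionine restriction on cover was called different between day 5 and day 1, by the test of the difference itself, for 4 genes. The difference was -24.6 points for Myom1, -55.4 for Mybph, -50.8 for Actn2 and -72.1 for Csrp3. Myom1, Actn2 and Csrp3 were at 0 at day 1 in control medium, so their values restate the effect at day 5. Mybph lost nearly all its cover on both days, from control means of 41.3% at day 1 and 98.7% at day 5. Actn2 and Csrp3 entered the test only through the control libraries of day 5, and Myom1 was called in 12 of 20 alternatives.

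The change from day 0 to day 5 in control medium was called different between KO and WT, again by the test of the difference, for 7 genes. The difference, KO minus WT, was -66.9 points for Neb, -59.2 for Myom1, -95.3 for Mybph, -64.2 for Actn2, -23.9 for Actn3, -43.3 for Ldb3 and -72.2 for Csrp3. Actn2, Csrp3 and Myom1 entered this test only through the WT libraries of day 5 in control medium. The value of Neb was -94.6 points without KO line 1 at day 5 in control medium and -39.2 without KO line 2, and its call was lost with only the libraries compared. Both KO lines were at 0 for all 9 genes at day 0, so each value is the KO cover at day 5 less the WT rise. Actn3 was at 0 in both KO lines throughout, so its value is the WT rise with its sign turned.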

How the results depend on the processing

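Of 786 comparisons of a gene with an alternative other than a left-out library, 736 kept their side of the threshold, 25 lost the call, 17 gained it and 8 changed sign with a call in at least 1 of the 2 settings. With 1 library left out, 998 of 1031 kept their side, 26 lost the call and 7 gained it. Among those that kept their side, sign changed without a call in either setting in 10 and 5 cases. From day 0 to day 1 in control medium the genes called were 1 at a −log10 q of at least 3, 5 with centring and 0 with only the libraries compared. They were 2 at day 1 under restriction in lists of one covered length and 7 for restricted day 5 against day 0 with centring. At day 0, 1 gene had a mean cover of at least 50% at a −log10 q of at least 3, and with 20 segments 5% of those of Actn2 had it in restricted cells of day 5. The 8 were, with centring, Neb (4.14 points) and Ttn (13.39) at day 5 between media, and Csrp3 (37.52), Mybph (36.59), Myom1 (1.16) and Actn2 (25.6) between KO and WT in restricted medium. Csrp3 and Mybph were at or near 0 in both genotypes in that medium. In lists of one covered length the sign changed for Myom1, which turned to 3.15 points at day 5 and to 2.97 for the difference of the effects. Among values called in neither setting, sign changed with centring for Ttn (-3.02) and Actn3 (-2.29) from day 1 to day 5, Actn3 (14.96) for restricted day 5 against day 0 and Neb (6.36) under restriction at day 1. It also changed at a −log10 q of at least 3 for Neb (-0.283 from day 0 to day 1 and 0.128 under restriction at day 1) and Ldb3 (-13.2 for the difference of the effects), in lists of one covered length for Actn3 (11.9, restricted day 5 against day 0) and Ldb3 (-18.45, difference of the effects), and with the replicate block for Mybph (0.518, KO against WT in restricted medium). With a library left out it changed for Ttn (-25.4, KO change), Actn3 (4.09, restricted day 5 against day 0) and Ldb3 (-1.73 to -1.32, difference of the effects). The cause was not tested.

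In the 3′ minus 5′ measure, the count from day 0 to day 1 was 0 at a −log10 q of at least 3, with centring, one covered length, no filter, only the libraries compared, other limma settings and the replicate block. Under restriction at day 1 it was 0 at that q, with one covered length and with only the libraries compared, and 2 with no filter. With only the libraries compared it was 0 from day 0 or day 1 to day 5 in control medium. For restricted day 5 against day 0 it was 0, and between media at day 5 it was 2, at that q and with one covered length. For the difference of the effects it was 2 at that q or with joined peaks.

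With each library left out, the genes called ranged from 4 to 7 for the KO change from day 0 and from 2 to 4 for restricted day 5 against day 0, and in the 3′ minus 5′ measure from 0 to 1 for day 1 against day 0 and for the difference of the effects. Counts over all genes that moved by more than 1.5 times were these. From day 0 to day 1, 629 became 142 to 986 without a library of day 0, control day 1 or restricted day 5, 333 with centring, 196 with one covered length and 0 with only the libraries compared. Under restriction at day 1, 3648 became 2409 and 2354 without the second control or the second restricted library and 2291 with one covered length. Without the first control library of day 5, 2641 became 1759 from day 0, 2194 became 1108 from day 1 and 4355 became 2721 between media. Without a control library of day 1, 2194 became 1248 or 1449. At a −log10 q of at least 3, 2194 became 1295 and 4355 became 2896, and with only the libraries compared 2641 became 1706. For the difference of the effects 495 became 212 to 329 in 6 cases of a library left out. Between KO and WT in control medium, 7456 became 4388 with centring, and for the KO change 1580 became 4411 without KO line 2 at day 5 and 988 with only the libraries compared. The replicate block moved no count of genes called on cover (2 from day 0 to day 1 and 7 between media at day 5). The replicate numbers share only a number: deviations of same-numbered libraries correlated at -0.439 to 0.0616 over 10 pairs of WT groups, 0 of them above 0.1. Tcap stayed untested with bodies of at least 1 kb. The 3′ minus 5′ measure without shared bases was not run. Depth is unknown, so a cover of 0 means that no peak was called.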

Other observations

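Of 17 neighbours of the genes, 11 had cover in WT and 6 were at 0 in every WT group, among them Chil1 beside Mybph, Ccdc87 beside Actn3, Pnmt and Pgap3 beside Tcap and Opn4 beside Ldb3. Zdhhc13 and E2f8, on either side of Csrp3, had group means of 67.6% to 79.7% and 48.6% to 83.4% in WT, also in the groups where Csrp3 was at 0. Rif1, next to Neb, had 64.2% to 73.7%. Mtr, next to Actn2, had 69.5% to 87.8%, with 78.5% in control and 87.8% in restricted medium at day 5. The 20 kb on both sides of Ldb3 were at 0 in all WT libraries.

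In the authors' deposited lists, ranked within each list by fold enrichment, the highest peak on Ttn was at rank 4 and rank 6 at day 5 in control medium, with folds of 7.35 and 7.21.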
